A study of Homo sapiens with 6 samples.

Results

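Cancer-testis antigens are proteins that adult tissues normally make in germ cells and that many tumours also make. Their genes were described here in 3 oral cancer lines: 6 MAGE-A genes (MAGEA1, MAGEA3, MAGEA4, MAGEA6, MAGEA10 and MAGEA12), MAGEB2, PRAME and GTSF1. These 9 symbols, of 27852 in the table, were taken by name, each as the sum of its transcripts counted once. They had been picked for how their levels differed between the lines, so levels by line are given as a description with no test. For them only the comparison of culture media was tested.

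HSC3, HSC4 and SAS are long-established human oral squamous carcinoma lines. Each was grown in DMEM, a standard culture medium, and in HPLM, a medium made to resemble human plasma, both with heat-inactivated fetal bovine serum. Polyadenylated RNA gave 6 libraries, that is 1 from every pairing of a line with a medium. In the comparison of media the 3 lines stand in for replicates. In comparisons of lines the 2 libraries of a line, 1 per medium, stand in for replicates. The labels name no other treatment, and p-values measure only the spread between these cultures.

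In somatic cells most MAGE-A genes are silent, and methylation of CpG sites at their promoters is a known part of that silence. MAGE proteins bind RING-type E3 ubiquitin ligases, for example the pair formed by MAGEA3 or MAGEA6 with TRIM28, and short peptides from them are shown to T cells on HLA molecules. PRAME is a leucine-rich repeat protein that serves as substrate receptor of a cullin ligase, and GTSF1 is a small zinc finger protein that assists PIWI proteins in the piRNA pathway of the germline.

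Library totals lay between 17715962 and 20171750 estimated counts. Levels are given as CPM, estimated counts relative to the TMM-scaled library size. The deposited values were already corrected for transcript length, so CPM can be compared between genes as well as between libraries. A gene was called on in a library at 1 CPM or more. A level of 0 allows up to 3 estimated counts in a library. That is at most 0.157 CPM in HSC3, 0.162 CPM in HSC4 and 0.161 CPM in SAS. The limit is approximate, since the values are scaled and not numbers of reads. Fewer cells with a transcript and less of it per cell cannot be told apart in these libraries. All 6 squamous epithelial markers (KRT5, KRT14, KRT17, TP63, CDH1 and EPCAM) were on in every library. None of 8 testis and germ cell markers was on in any, and their summed level lay between 0.43 and 0.93 CPM. Of markers of other cell types, 3 of 6 for melanocytes (MITF, MLANA and PMEL), 2 of 5 for leukocytes (PTPRC and ITGAM), 2 of 5 for fibroblasts (COL1A1 and PDGFRB) and 1 of 4 for endothelium (CDH5) were on in at least 1 library.

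MAGEA3 and MAGEA6 are close to being copies, which limits how well short reads can be told apart between them. In GENCODE 29 (GRCh38), MAGEA3 lies at chrX:152698752-152702347 on the plus strand and MAGEA6 at chrX:152766136-152769747 on the minus strand, with a gap of 63.8 kb. Their coding sequences of 942 bases had 18 mismatches, an identity of 98.1%. The 120 coding bases with the most of them are shown because reads over such places are what separates the genes. Positions 804 to 923 are counted from the A of the start codon, and capitals mark the 6 bases at which MAGEA3 and MAGEA6 differ. In the matching stretch of MAGEA4, positions 807 to 926, capitals mark the 25 bases that differ from MAGEA3.
MAGEA3: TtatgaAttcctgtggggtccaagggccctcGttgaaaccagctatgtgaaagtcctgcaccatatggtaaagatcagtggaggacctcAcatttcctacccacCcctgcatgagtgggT
MAGEA6: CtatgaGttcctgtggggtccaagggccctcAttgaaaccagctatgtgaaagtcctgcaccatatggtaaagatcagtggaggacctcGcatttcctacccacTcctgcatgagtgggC
MAGEA4: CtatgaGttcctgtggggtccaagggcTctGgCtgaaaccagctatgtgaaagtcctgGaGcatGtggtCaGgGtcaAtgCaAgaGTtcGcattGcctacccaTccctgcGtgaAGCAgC

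Of all stretches of 31 bases in its transcripts, MAGEA3 shared 71.6% with some other gene and 67.9% with MAGEA6. MAGEA6 shared 69.7%, MAGEA12 32.1% and MAGEA10 20.9%, of which 14.8% was with the readthrough MAGEA10-MAGEA5. The share was 7.92% for MAGEA4, 6.96% for MAGEA1, 2.28% for MAGEB2, 1.27% for GTSF1 and 0.537% for PRAME. Levels of MAGEA3 and MAGEA6 are therefore uncertain as to which of the pair the reads came from, and those of MAGEA4, MAGEB2, GTSF1 and PRAME much less so. The coding sequence of MAGEA4 was 82.3% identical to that of MAGEA3 and 85.4% to that of MAGEA1.

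The identity of MAGEA3 and MAGEA6 also covered the promoter. In the RefSeq promoter table (GRCh38.p14), which held 7 of the 9 genes, all 250 bases before the start were the same in both. The first 192 of them are shown, at chrX:152698544-152698735 (plus strand) for MAGEA3 and chrX:152769748-152769939 (minus strand) for MAGEA6, with CpG sites in capitals.
MAGEA3 and MAGEA6 promoter: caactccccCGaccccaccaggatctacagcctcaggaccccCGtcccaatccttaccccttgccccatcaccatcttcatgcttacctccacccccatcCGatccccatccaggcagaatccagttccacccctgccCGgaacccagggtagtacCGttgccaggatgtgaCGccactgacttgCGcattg

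This stretch held 7 CpG sites, and the 250 bases held 15. The median over 35114 RefSeq promoter windows of that length was 11. In the table, all counts of MAGEA3 were in HSC4 and most of those of MAGEA6 in HSC3.

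MAGEA4 and GTSF1 were the strongly expressed genes of the group, each in a line of its own. MAGEA4 stood at 78.8 CPM in DMEM and 87.4 CPM in HPLM in HSC3, was listed at 0 in both HSC4 libraries, and stood at 1.05 and 1.08 CPM in SAS. GTSF1 stood at 63.4 and 70.6 CPM in SAS, at 1.73 and 1.11 CPM in HSC3, and at 0.224 and 0.145 CPM in HSC4. The remaining 7 genes did not pass 4.01 CPM in any library.

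**Figure D1:**
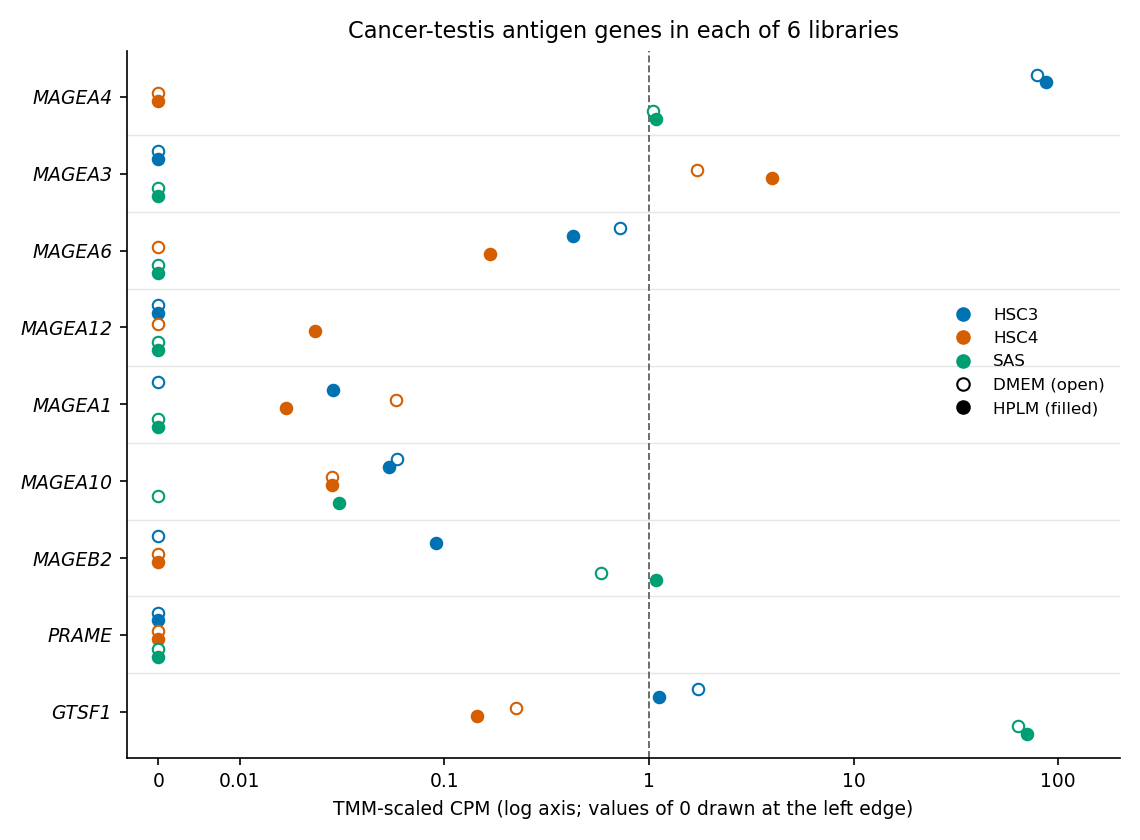
TMM-scaled CPM of the 9 genes (log axis, values of 0 at the left edge, dashed line at 1 CPM) in each library, coloured by line, with open circles for DMEM and filled circles for HPLM. MAGEA4 lies at 78.8 and 87.4 CPM in HSC3 and GTSF1 at 63.4 and 70.6 CPM in SAS, far above the other lines, while PRAME is at 0 throughout.

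In all, 4 of the 9 genes (MAGEA4, MAGEA3, MAGEB2 and GTSF1) were on in at least 1 library, beside 49.4% of all symbols. By library, 2 were on in HSC3 in DMEM (43.5% of all symbols) and 2 in HPLM (43.3%), and 1 in HSC4 in each medium (44.5% in both). In SAS there were 2 in DMEM (43% of all symbols) and 3 in HPLM (43.5%). The other 5 genes stayed under 1 CPM in every library. Since the genes were picked on these levels, the shares describe the set and nothing more.

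Among the MAGE-A genes, MAGEA4 (chrX:151912509-151925170, plus strand) had the only high level. It was the rank 1880 symbol of 16995 above 0 in HSC3 in DMEM and rank 1758 of 17073 in HPLM, so that 88.9% and 89.7% of them lay below it. The estimated counts behind these levels were 1508 and 1705 in HSC3 and 19.4 and 20.5 in SAS. The order of the lines was HSC3, SAS, HSC4, and the values of the 3 lines did not overlap. The mean in HSC3 was 78.0 times that in SAS, which reached 1.28% of it. Against HSC4, with no count at all, it was at least 513-fold higher, taking 3 counts per library as the limit.

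The transcripts of MAGEA4 start at many places and share their coding exon. MAGEA4-205, which starts at chrX:151916925, held 965 of the estimated counts in HSC3 in DMEM (64.0% of the gene) and 929 in HPLM (54.5%). MAGEA4-211, which starts at chrX:151918902, held 28.3% and 32.8%. The same 2 transcripts led in SAS, with 60.4% and 46.5% for MAGEA4-205 and 31.2% and 32.4% for MAGEA4-211. MAGEA4-206 was at 4.64 estimated counts in HSC3 in DMEM and at 116 in HPLM, where there is 1 library each and no replicate check. Transcript shares rest on assigning reads among near-identical models.

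**Figure D2:**
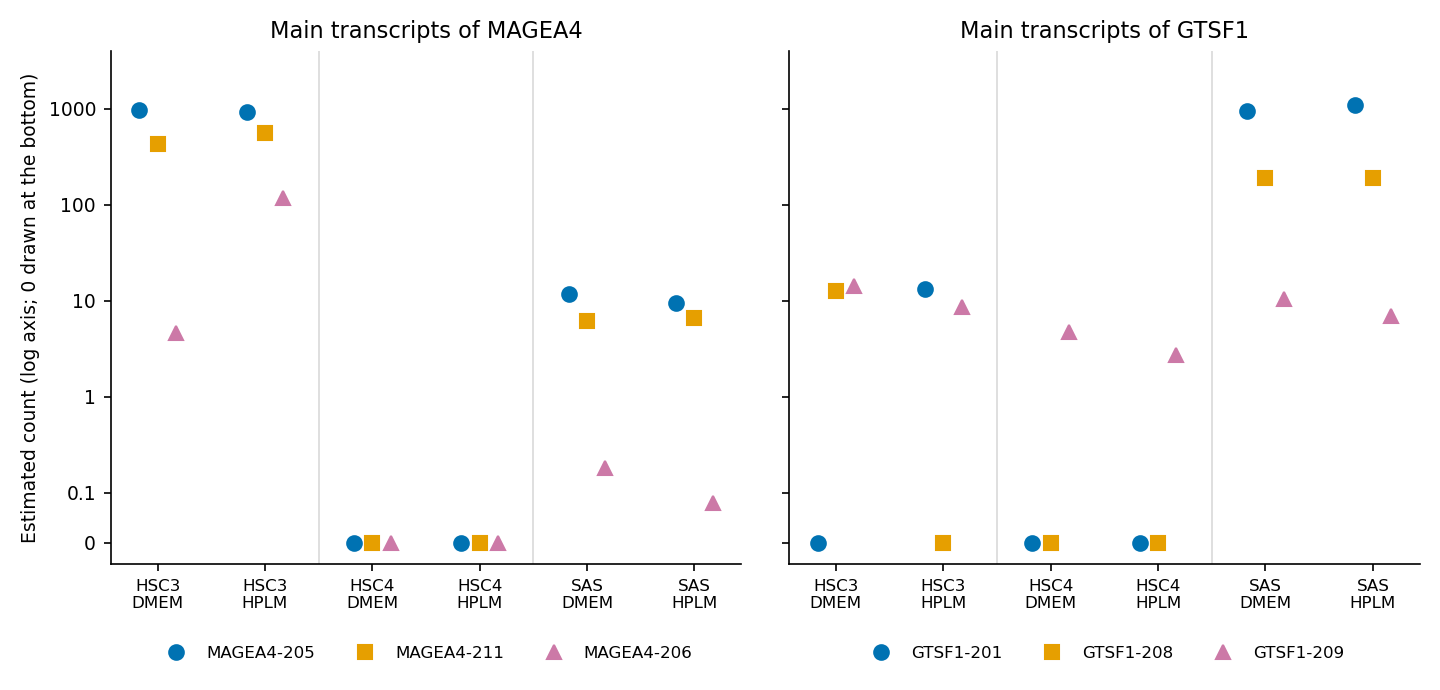
Estimated counts (log axis, 0 at the bottom) of the main transcripts of MAGEA4 (left) and GTSF1 (right) in each library. MAGEA4-205 and MAGEA4-211 lead in HSC3 and in SAS, GTSF1-201 leads in SAS, and GTSF1-209 is the only GTSF1 transcript above 0 in HSC4.

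The promoter of the leading start is shown as the sequence beside the highest MAGE level. It covers chrX:151916675-151916873 on the plus strand (GRCh38.p14, RefSeq), with CpG sites in capitals.
MAGEA4 promoter: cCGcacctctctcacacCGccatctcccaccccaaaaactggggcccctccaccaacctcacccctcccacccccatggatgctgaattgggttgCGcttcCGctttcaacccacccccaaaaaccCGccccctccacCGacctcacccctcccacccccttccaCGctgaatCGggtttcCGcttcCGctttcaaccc

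These 199 bases held 10 CpG sites. The upstream 250 bases of this start were 88.9% identical to those of the RefSeq start at 151916237 and 85.4% identical to those of the start at 151918288, so the gene carries near-copies of 1 promoter. They were 45.3% identical to the MAGEA3 promoter. The letters GGAA (either strand), the core of ETS factor sites, occurred 4 times in the 250 bases, and 92.7% of all windows held them at least once. GGGCGG (either strand), the GC box bound by SP1, occurred 1 time, with 42.6% of windows holding it. TATAAA (either strand) did not occur, and 10.7% of windows held it.

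MAGEA3, a ligase partner of TRIM28, was on in HSC4 alone among the lines. It stood at 1.71 CPM in DMEM and 4.01 CPM in HPLM there, on 35.9 and 74.4 estimated counts, and was listed at 0 in the 4 other libraries. The mean in HSC4 was at least 17.7-fold higher than in SAS, taking 3 counts per library as the limit. Against HSC3 no bound is given for MAGEA3 alone, because MAGEA6 held counts there. On and off in this way, at 1 CPM or more in both libraries of HSC4 and under 1 CPM in the rest, it was 1 of 251 symbols (0.901% of all). MAGEA3-203 held 71.3% and 66.9% of its counts and MAGEA3-201 the remainder.

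MAGEA6 went the other way. It stood at 0.719 and 0.424 CPM in HSC3, at 0 and 0.167 CPM in HSC4, and at 0 in both SAS libraries. In HSC3 most of it was MAGEA6-203, a model of 921 bases, with 67.4% and 99.2% of the gene. The sum of MAGEA3 and MAGEA6, which depends less on how reads were divided between them, was 0.719 and 0.424 CPM in HSC3, 1.71 and 4.18 CPM in HSC4, and 0 in SAS. The mean of the pair in HSC4 was 5.16 times that in HSC3. The order of the lines for the pair was HSC4, HSC3, SAS, with no overlap.

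The other MAGE-A genes were near 0. MAGEA1 reached at most 0.0583 CPM (HSC4 in DMEM), MAGEA10 at most 0.0588 CPM (HSC3 in DMEM) and MAGEA12 0.0234 CPM in HSC4 in HPLM, its only library above 0. All lie below the limit of 3 counts, and their lines cannot be ordered.

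MAGEB2 (chrX:30215560-30220089, plus strand), a MAGE gene on the short arm of X, was highest in SAS. It stood there at 0.583 CPM in DMEM and 1.08 CPM in HPLM, on 10.8 and 20.5 estimated counts. It was at 0 and 0.0905 CPM in HSC3 and at 0 in both HSC4 libraries. HSC3 and HSC4 both lay below the limit of 3 counts and cannot be ordered.

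PRAME (chr22:22547701-22559361, minus strand) was listed at 0 in all 6 libraries for each of its 15 transcripts. The 18 other genes in the table listed as its family included OOEP, which does not belong to it. Of the 18, 1 was on, beside 49.4% of all symbols on in at least 1 library. This was LRRC14, at 18.4 and 20.6 CPM in HSC3, 17.9 and 19.0 CPM in HSC4 and 34.3 and 28.3 CPM in SAS.

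GTSF1 (chr12:54455950-54473602, minus strand) was the autosomal counterpart of MAGEA4. It ranked 2395 of 16964 symbols above 0 in SAS in DMEM and 2146 of 17411 in HPLM, above 85.9% and 87.7% of them. The estimated counts were 1179 and 1333 in SAS, 33.1 and 21.8 in HSC3, and 4.70 and 2.69 in HSC4. The order was SAS, HSC3, HSC4, with no overlap. The mean in SAS was 47.1 times that in HSC3 and 363 times that in HSC4.

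The listed GTSF1 transcripts varied, on few counts outside SAS. In SAS, GTSF1-201 held 79.3% and 82.6% of the gene, on 935 and 1100.5 estimated counts, and GTSF1-208 held 16.0% and 14.3%. In HSC3, GTSF1-201 was at 0 in DMEM and at 60.5% of the gene in HPLM, on 13.2 estimated counts, so the libraries of that line did not agree. In HSC4 all counts, 4.70 and 2.69, were in GTSF1-209, which starts at chr12:54472627, downstream of the start of GTSF1-201 at chr12:54473599. GTSF1-209 lay between 2.69 and 14.1 estimated counts in every library and made up 42.7% and 39.5% of the gene in HSC3 but 0.884% and 0.516% in SAS. The promoter of the upstream start, where the counts of SAS lie, is shown (chr12:54473603-54473852, minus strand, GRCh38.p14, RefSeq), with its 8 CpG sites in capitals.
GTSF1 promoter: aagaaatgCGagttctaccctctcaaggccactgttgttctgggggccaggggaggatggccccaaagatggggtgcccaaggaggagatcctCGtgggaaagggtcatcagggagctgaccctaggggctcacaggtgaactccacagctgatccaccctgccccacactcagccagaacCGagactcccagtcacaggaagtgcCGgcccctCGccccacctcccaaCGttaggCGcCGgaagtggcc

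Of these CpG sites 6 were in the 100 bases next to the start. GGAA (either strand) occurred 3 times, and neither GGGCGG nor TATAAA occurred. The GTSF1 promoter was 41.8% identical to the MAGEA4 promoter shown above.

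Symbols with a pattern over lines like that of MAGEA4 or GTSF1 were counted among all symbols, as a description. The rule of 50 CPM or more in both libraries of a line and over 30-fold above each other library was set after the values were seen. By it MAGEA4 was 1 of 2 symbols in HSC3 (0.00718% of all), GTSF1 1 of 4 in SAS (0.0144%), and HSC4 had 1 (0.00359%). The numbers depend on the level asked for. With 1 CPM in place of 50 and the same fold, they were 26 in HSC3, 29 in SAS and 27 in HSC4.

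For MAGEA4 and GTSF1 each, the 3 genes of most similar pattern were sought among 1440 with a wide range. Similarity was Pearson's r of log2(CPM + 1) over the 6 libraries. For MAGEA4 they included FERMT3 (r = 0.998) and PTGS1 (r = 0.994). PTGS1, the cyclooxygenase-1 gene, stood at 56.4 and 51.4 CPM in HSC3, 3.11 and 2.96 CPM in HSC4 and 7.44 and 6.12 CPM in SAS. For GTSF1 they were ALG10 (r = 0.999), ELOVL4 (r = 0.998) and AADACP1 (r = 0.996). The pseudogene AADACP1 came nearest in size, with 82.3 and 56.4 CPM in SAS and 2.24 CPM or less elsewhere. With 3 lines of 2 libraries such values of r mainly say that the order and spacing of the lines are alike.

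No difference between the media was called in MAGEA4 or GTSF1, the only 2 of the 9 genes that passed the filter on low counts. Of 13236 genes tested by edgeR's quasi-likelihood test with the line as block, 1 was called (0.00756%), and 1339 had an unadjusted p under 0.05 (10.1%). DESeq2 called 127 and limma-voom 9. MAGEA4 changed by 0.13 ± 0.15 (log2 HPLM over DMEM, SE, n = 3 lines, edgeR adjusted p = 0.819) and GTSF1 by -0.06 ± 0.19 (edgeR adjusted p = 0.945). Neither had an unadjusted p under 0.05, and DESeq2 and limma-voom called neither.

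MAGEA4, MAGEA3 and GTSF1 were on in the same lines in both media, and MAGEB2 lay on either side of 1 CPM in SAS, above 0.5 CPM in both media. MAGEA4 had a log2 ratio of HPLM to DMEM of 0.15 in HSC3 and 0.05 in SAS (-0.025 there without TMM scaling). For GTSF1 it was 0.15 in SAS and -0.59 in HSC3. The ratio was 1.18 for MAGEA3 in HSC4 and 0.79 for MAGEB2 in SAS, each on 1 pair of libraries and few counts. The ratios of MAGEA3 and MAGEB2 have no replicate check, since the other lines were at or near 0.

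Levels of the genes beside MAGEA4, MAGEA3 and MAGEA6 are given along the chromosome. From 300 kb before MAGEA4 to 300 kb past MAGEA1 there were 33 symbols in the table. Of these, 8 were on in some library, beside 49.4% of all symbols. Among 13 MAGEA and CSAG symbols 2 were on, MAGEA4 and MAGEA3. The closest symbol to MAGEA4, GABRE, a subunit of the GABA-A receptor, stood at 9.12 and 3.80 CPM in HSC3, 2.16 and 2.50 CPM in HSC4 and 4.52 and 3.06 CPM in SAS. GABRE was lower in HSC4 than in HSC3 by -1.37 ± 0.40 (log2, edgeR adjusted p = 0.0439), in a comparison that called 36.2% of 14123 genes. GABRA3 lies between MAGEA4 and MAGEA3. It stood at 0.201 and 0.0897 CPM in HSC3, 1.24 and 0.725 CPM in HSC4 and 0.389 and 0.270 CPM in SAS. In the same comparison GABRA3 was higher in HSC4 than in HSC3 by 2.59 ± 0.71 (log2, edgeR adjusted p = 0.0369). Between SAS and HSC4 it was not called (edgeR adjusted p = 0.114). CSAG3, which lies between MAGEA3 and MAGEA6, reached at most 0.771 CPM. MAGEA2 and MAGEA2B, also between them, were at 0 in all libraries.

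**Figure D3:**
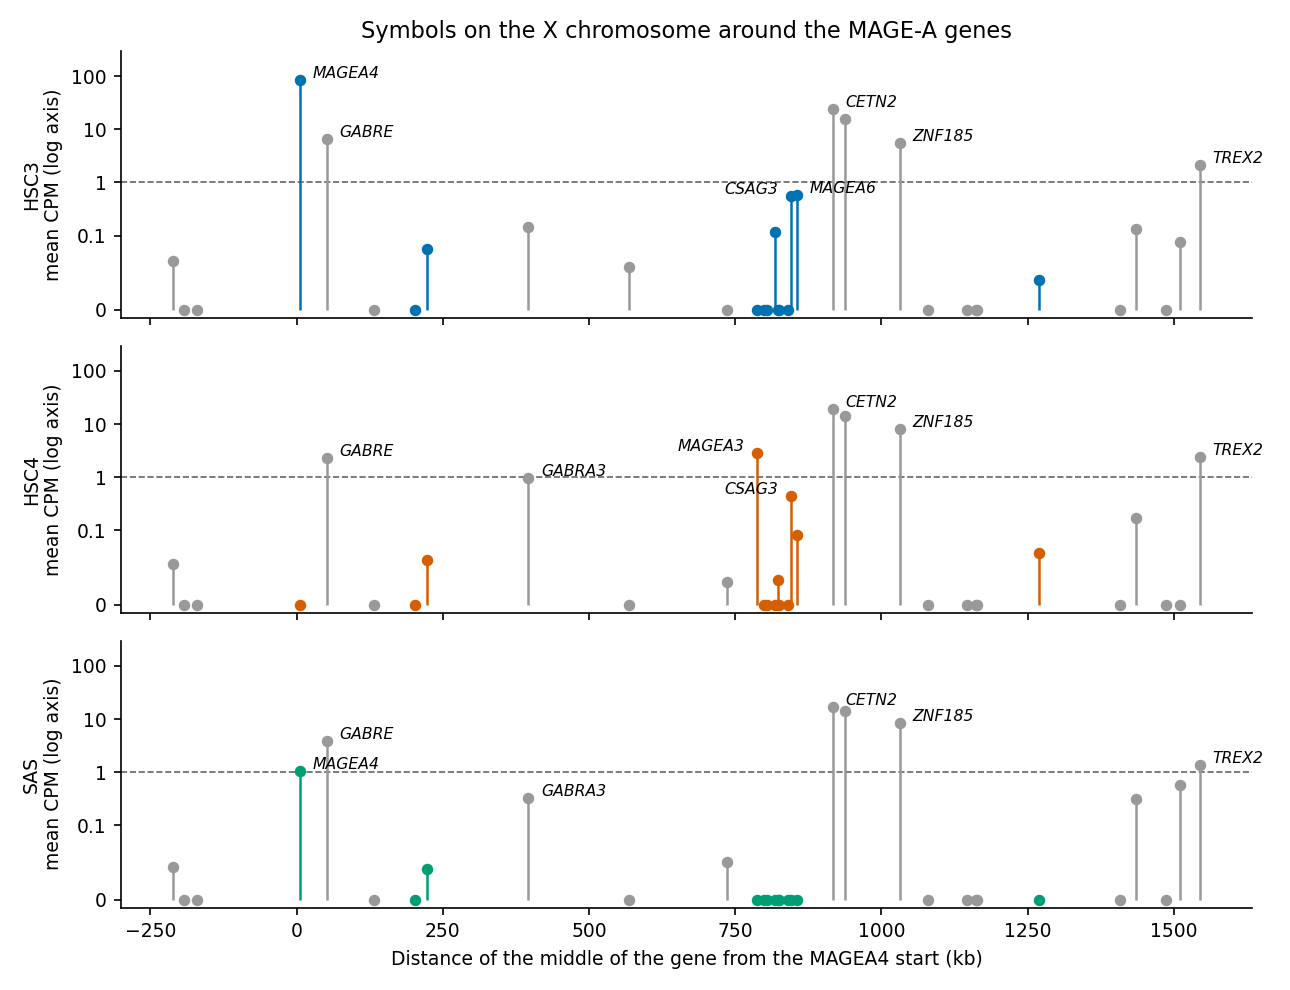
Mean CPM of both libraries of each line (log axis, 0 at the bottom, dashed line at 1 CPM) for the symbols from MAGEA4 to MAGEA1 and 300 kb on each side, by distance from the MAGEA4 start in kb. Coloured points are MAGEA and CSAG symbols and grey points are others. MAGEA4 rises above 1 CPM in HSC3 and SAS and MAGEA3 in HSC4. CETN2 and ZNF185, which lie between MAGEA6 and MAGEA1, are above 1 CPM in all lines.

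Near MAGEB2, 1 of 6 symbols within 300 kb was on in some library, beside 49.4% of all symbols. MAGEB3, MAGEB4, MAGEB1, NR0B1 and PIGFP3 were at 0 in all libraries. IL1RAPL1, a synaptic adhesion protein gene, lay furthest from MAGEB2, at a gap of 258837 bases. It stood at 17.1 and 20.1 CPM in SAS, 3.60 and 2.45 CPM in HSC3 and 0.0665 and 0.0723 CPM in HSC4. It was higher in SAS than in HSC3 by 2.62 ± 0.25 (log2, edgeR adjusted p = 0.00168), in a comparison that called 37.6% of genes. Against HSC4 the difference was 8.36 ± 0.43 (edgeR adjusted p = 0.000526, 39.8% of genes called). SAS was thus also the line with the highest IL1RAPL1.

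Near GTSF1, 7 of 14 symbols within 300 kb were on in some library, close to the 49.4% of all symbols. In all libraries 6 of them were on, beside 10776 of all 27852 symbols. The nearest symbol before it, ITGA5, did not follow its order. ITGA5, the integrin alpha-5 gene, stood at 25.9 and 38.1 CPM in HSC3, 82.4 and 99.1 CPM in HSC4 and 25.0 and 29.4 CPM in SAS. NCKAP1L, on the other side, stood at 0.390 and 0.175 CPM in SAS, 0.176 and 0.0974 CPM in HSC3 and 0 and 0.0407 CPM in HSC4. These low values overlapped between SAS and HSC3.

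Most other germline genes were off. Of 19 other MAGE-A, MAGE-B and MAGE-C genes none was on in any library, beside 49.4% of all symbols on in at least 1 library. Of 54 other X-linked cancer-testis genes 3 (5.56%) were on in some library, beside the same 49.4%, and none was above 1.76 CPM. CT45A1 stood at 0.893 and 1.76 CPM in HSC4 and at 0 in the other lines. SPANXC stood at 0.715 and 1.16 CPM in HSC3, and SPANXB1 at 0.86 and 1.04 CPM there and 0.785 and 0.513 CPM in HSC4. SPANX and CT45 genes also have near-identical copies.

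Of 10 MAGE genes of broad expression, 7 were on in at least 1 library (49.4% of all symbols). In every library 4 were on, beside 10776 of all 27852 symbols. MAGED1, NSMCE3 and the 2 named next were those on in all. MAGEF1 lay between 24.8 and 35.9 CPM in all libraries. MAGED2, whose product has a known role in kidney salt transport, stood at 28.5 and 24.2 CPM in HSC3, 31.8 and 30.01 CPM in HSC4 and 10.9 and 12.1 CPM in SAS. It was lower in SAS than in HSC3 by -1.19 ± 0.15 (log2, edgeR adjusted p = 0.0031). MAGEE1 reached 1.42 CPM and MAGEH1 1.16 CPM, both in HSC4 in DMEM. Between HSC4 and HSC3, 6 of the 8 tested genes of the list were higher in HSC4 and none lower, beside 18.3% and 18% of all genes. In SAS, 3 were higher and 1 lower than in HSC3, beside 18.1% and 19.6%. Against HSC4, none was higher and 3 were lower in SAS, beside 19.3% and 20.5%.

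**Figure D4:**
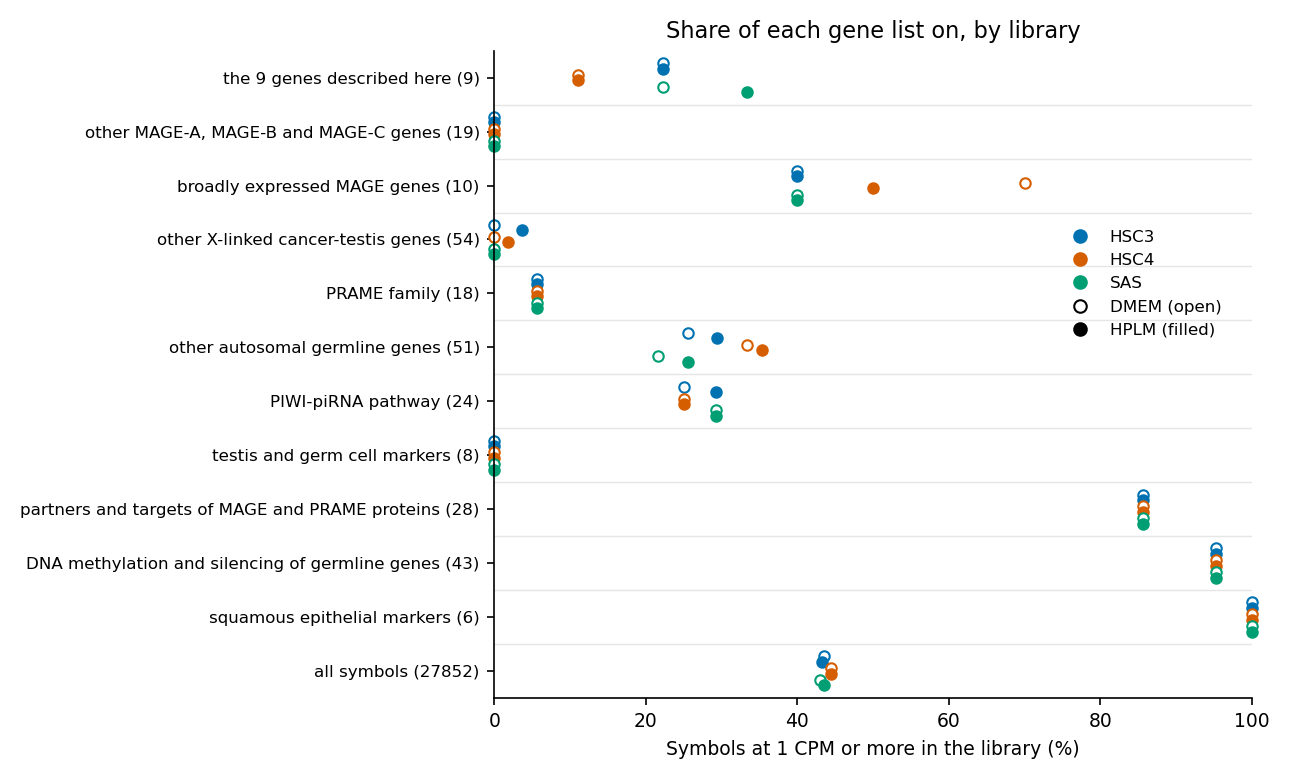
Share of the symbols of each gene list at 1 CPM or more in a library (percent), with the number of symbols in the table in brackets. The other MAGE-A, MAGE-B and MAGE-C genes and the germ cell markers are at 0% in all libraries, the 9 genes described lie between 11.1% and 33.3%, and the silencing genes are at 95.3%.

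Of 51 other autosomal germline genes 18 (35.3%) were on in at least 1 library, beside 49.4% of all symbols. They were led by genes that dividing cells use as well, namely ATAD2, CEP55, KIF2C, PBK and TTK. IGF2BP3, an oncofetal RNA-binding protein, lay between 56.6 and 82.5 CPM in all libraries. The other genes given here are named after their values were seen. DMC1, the meiotic recombinase, stood at 5.86 and 10.5 CPM in HSC4, 0.71 and 1.45 CPM in HSC3 and 0.481 and 1.60 CPM in SAS. It was higher in HSC4 than in HSC3 by 2.93 ± 0.35 (log2, edgeR adjusted p = 0.00322) and lower in SAS than in HSC4 by -3.07 ± 0.35 (edgeR adjusted p = 0.00273). SMC1B, a meiotic cohesin, stood at 1.46 and 1.74 CPM in HSC4 and at most 0.0553 CPM elsewhere. Of other genes that act in meiosis, REC8 lay between 2.46 and 3.64 CPM and STAG3 between 1.10 and 2.93 CPM in the 6 libraries, and neither was called between any lines. HORMAD1, not tested, stood at 0.785 and 0.331 CPM in SAS and at 0 elsewhere. Between HSC4 and HSC3, 5 of the 18 tested genes of the list were higher in HSC4 and none lower, beside 18.3% and 18% of all genes. In SAS, 1 was higher and 1 lower than in HSC3, beside 18.1% and 19.6%. Against HSC4, 1 was higher and 7 were lower in SAS, beside 19.3% and 20.5%.

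GTSF1 works with PIWI proteins. Of 24 other genes of the PIWI-piRNA pathway 8 were on in some library, beside 49.4% of all symbols. PIWIL1, a PIWI protein itself, stood at 0.602 and 1.504 CPM in HSC3, 0.0169 and 0 CPM in HSC4 and 0.0807 and 0.775 CPM in SAS. EXD1, an RNA-binding adaptor of the piRNA pathway, stood at 1.27 and 2.11 CPM in SAS and at most 0.0841 CPM elsewhere. Both are named after their values were seen.

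The line with the highest GTSF1 had the lowest HENMT1, the methyltransferase that protects the ends of piRNAs. HENMT1 stood at 3.52 and 1.63 CPM in SAS, 16.9 and 19.8 CPM in HSC3 and 21.6 and 24.1 CPM in HSC4. It was lower in SAS than in HSC3 by -2.84 ± 0.33 (log2, edgeR adjusted p = 0.00273) and than in HSC4 by -3.15 ± 0.33 (edgeR adjusted p = 0.00205). PLD6, a mitochondrial protein of piRNA processing, was higher in SAS, at 9.29 and 9.75 CPM against 4.57 and 4.98 CPM in HSC3 (0.99 ± 0.22, edgeR adjusted p = 0.0187). TDRKH, a mitochondrial tudor-domain protein that binds PIWI proteins, was higher in SAS than in HSC3 as well (0.81 ± 0.24, edgeR adjusted p = 0.0456). MYBL1, a transcription factor of piRNA precursors, stood at 16.3 and 13.7 CPM in HSC3, 33.1 and 25.8 CPM in HSC4 and 20.8 and 23.9 CPM in SAS. SPOCD1, which links piRNAs to DNA methylation, stood at 1.22 and 1.97 CPM in HSC3, 12.0 and 8.45 CPM in HSC4 and 4.33 and 6.40 CPM in SAS. Both were higher than in HSC3 in HSC4 (MYBL1 edgeR adjusted p = 0.00996, SPOCD1 edgeR adjusted p = 0.0046) and in SAS (MYBL1 edgeR adjusted p = 0.0437, SPOCD1 edgeR adjusted p = 0.016). TDRD7, a tudor-domain protein of germ granules, lay between 3.49 and 8.29 CPM. Of the 9 tested genes of the list, 5 were higher and 1 lower in SAS than in HSC3, beside 18.1% and 19.6% of all genes. Against HSC4, 4 were higher and 1 lower in SAS, beside 19.3% and 20.5%.

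**Figure D5:**
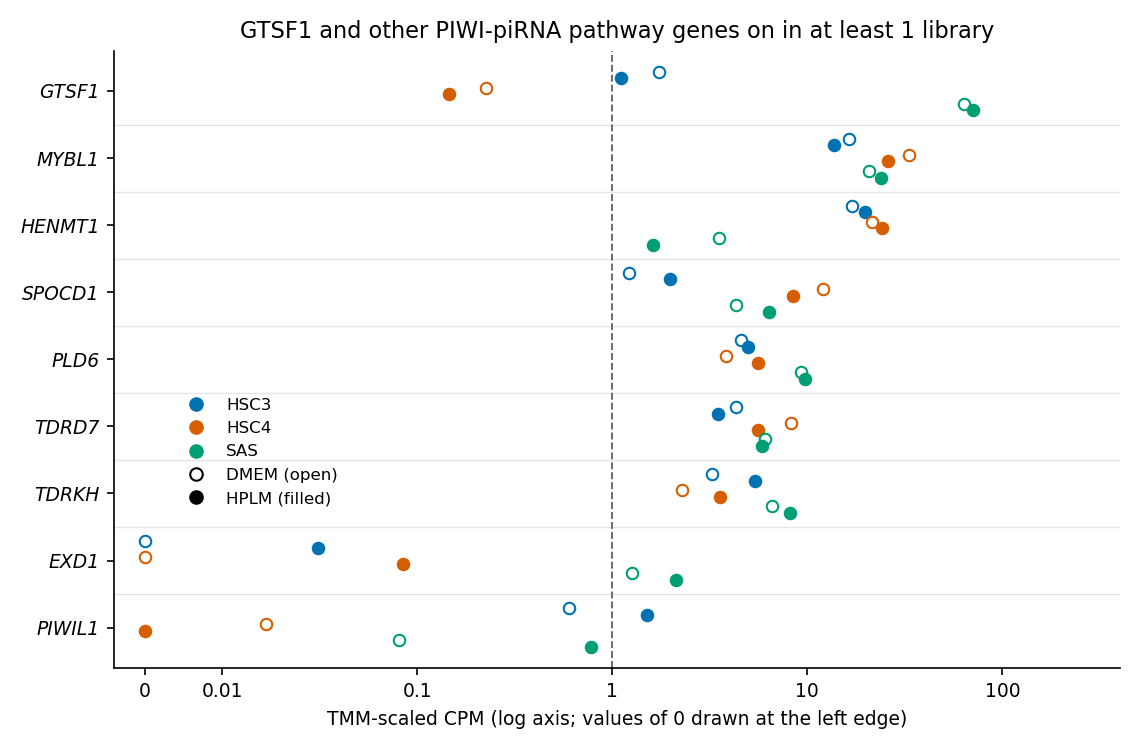
TMM-scaled CPM (log axis, values of 0 at the left edge, dashed line at 1 CPM) of GTSF1 and the 8 other PIWI-piRNA pathway genes on in at least 1 library, coloured by line, with open circles for DMEM and filled circles for HPLM. GTSF1, EXD1, PLD6 and TDRKH are highest in SAS, and HENMT1 is lowest there.

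The ligases and partners of MAGE and PRAME proteins were present in all lines, 24 of 28 being on in every library. Of all 27852 symbols, 10776 were on in every library. TRIM28, the ligase bound by MAGEA3 and MAGEA6, lay between 415 and 541 CPM. RAD18, a ligase of DNA damage tolerance bound by MAGEA4, stood at 10.1 and 9.98 CPM in HSC3, where MAGEA4 was high, at 20.9 and 20.5 CPM in HSC4 and at 43.9 and 39.9 CPM in SAS. RAD18, named after its values were seen, was higher in SAS than in HSC3 by 2.06 ± 0.13 (log2, edgeR adjusted p = 0.00069). ELOB, ELOC and CUL4A, parts of cullin ligases, and G3BP1, a stress granule protein, were on in all libraries, between 72.5 and 363 CPM. CUL4A was higher in SAS than in HSC3 by 1.01 ± 0.12 (log2, edgeR adjusted p = 0.00291). Of the 26 tested genes of the list, 6 were higher and 5 lower in SAS than in HSC3, beside 18.1% and 19.6% of all genes. Against HSC4, 9 were higher and 2 lower in SAS, beside 19.3% and 20.5%. In HSC4, 5 were higher and 4 lower than in HSC3, beside 18.3% and 18%.

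Genes of DNA methylation and of silencing of germline genes were on in every library for 41 of 43, beside 10776 of all 27852 symbols. DNMT1, the maintenance methyltransferase, was highest in HSC3, at 190 and 158 CPM, against 83.8 and 75.3 CPM in HSC4 and 83.8 and 69.3 CPM in SAS. It was lower than in HSC3 by -1.13 ± 0.10 in HSC4 (log2, edgeR adjusted p = 0.00189) and by -1.18 ± 0.10 in SAS (edgeR adjusted p = 0.00137). HDAC1, a histone deacetylase, was also highest in HSC3, at 149 and 156 CPM against 33.0 and 41.7 CPM in HSC4 and 95.1 and 94.0 CPM in SAS. Its relative HDAC2 was lowest in HSC3, at 110 and 119 CPM against 152 and 147 CPM in HSC4 and 221 and 210.3 CPM in SAS. HDAC2 was higher than in HSC3 by 0.38 ± 0.11 in HSC4 (log2, edgeR adjusted p = 0.0404) and by 0.91 ± 0.11 in SAS (edgeR adjusted p = 0.00279). H3-3A, a histone H3.3 gene, was lower than in HSC3 in HSC4 (-1.41 ± 0.12, edgeR adjusted p = 0.0015) and in SAS (-1.50 ± 0.12, edgeR adjusted p = 0.00112). CBX3, a heterochromatin protein, lay between 295 and 357 CPM in all libraries, and MAX, a partner of MYC and MGA, between 95.4 and 163 CPM. Of the 41 tested genes of this list, 4 were higher and 15 lower in HSC4 than in HSC3, beside 18.3% and 18% of all genes. In SAS, 6 were higher and 7 lower than in HSC3, beside 18.1% and 19.6%. Against HSC4, 13 were higher and 3 lower in SAS, beside 19.3% and 20.5%. Whether these levels bear on the cancer-testis genes was not tested.

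In the medium comparison no gene of these lists was called. At an unadjusted p under 0.05 there were 2 of 16 autosomal germline genes, 1 of 8 piRNA pathway genes, 3 of 25 partner genes and 5 of 41 silencing genes, beside 10.1% of all genes. Of the marker lists, 3 of 6 squamous and 1 of 3 melanocyte genes had such a p, and none of 2 leukocyte genes. The median log2 difference was 0.02 in the autosomal germline genes, 0.05 in the piRNA pathway, -0.06 in the partners, -0.05 in the silencing genes and 0.00 over all genes.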

How the data were processed

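Polyadenylated RNA was sequenced, per the labels' protocols. The submitters' processing notes name FastQC, kallisto and hg38. Their versions, the annotation release and the use of strand were not given in the sources used here. The table that the authors deposited holds expected counts by transcript, called scaled TPM: abundances scaled to the library's size, hence length-corrected and not reads. Columns for DMEM carry the line's name and no medium. Of 161149 rows, 1312 repeats were counted once and 6878 transcripts without a symbol left out. The remainder was summed to 27852 symbols and rounded for the tests, with totals of 17715962 to 20171750 per library. The precision that the tests take from these values is approximate.

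The medium was tested with edgeR 4.0.16 (R 4.3.3) by the quasi-likelihood test: filterByExpr (minimum count of 10, total of 15), TMM, line as block, Benjamini-Hochberg over all genes tested, calls at adjusted p under 0.05. Lines were compared with the medium as a term and the line as filter group, with 2 residual degrees of freedom, and those tests served only for genes other than the 9. The SE was taken as the size of the log2 difference divided by the root of F. Log2 ratios per line used a prior count of 2. Alternatives used DESeq2 1.42.0 and limma 3.58.1. On simulated data for the medium comparison (13290 genes), 95.5% of 2-fold changes were called, with 9 false calls. The simulation used a fixed dispersion and the same change in every line, and changed no gene of low count. Its rate is therefore not the power of the test in the deposited data. Libraries pair by line, since both media were given to the same line. Their deviations from the medium means correlated within HSC3 at 0.835, within HSC4 at 0.845 and within SAS at 0.855.

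The 9 genes and the 14 other lists, with 289 entries, were chosen with earlier results of these data known. Named were all 9, the up to 6 highest genes of each list at 1 CPM or more, and the 3 genes most like each of the 9 that reached 5 CPM; neighbours, and genes said to be so, were named after their values were seen. Of the genes most like MAGEA4, 1 is not reported here. Positions are from GENCODE 29 (GRCh38), which held 54 of the 55 transcripts of the 9 genes, and promoters from RefSeq (GRCh38.p14).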

Additional observations from a re-analysis of the deposited data

Results flagged for a closer look

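GTSF1 had log2 ratios of HPLM to DMEM of opposite sign in the lines in which it was on, -0.59 in HSC3 and 0.15 in SAS. Each value is 1 pair of libraries, and the difference between the lines was not tested.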

How the results depend on the processing

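No tested gene of the 9 was called for the medium under any of the 12 settings. Only 2 were tested in 7 of them and at most 7 in any, 2 being tested in none. The number of genes called for the medium was 1 and became 0 with upper-quartile scaling, with no filter on low counts, with the filter by line and with no replicate block, 127 with DESeq2 and 9 with limma-voom. Without 1 line it lay between 0 and 4. The difference for GTSF1, never called, was -0.06 and became 0.09 with limma-voom, 0.14 with no replicate block and 0.11 without HSC3, and was -0.59 without SAS. The log2 ratio of MAGEA4 in SAS changed sign without TMM, to -0.025. At 0.5 CPM, 3 of the 9 were on in SAS in both media. At 5 CPM, 1 gene was on in each HSC3 and SAS library and 0 in HSC4. Without 1 library, genes called between lines went from 5118 to between 2046 and 4801 (HSC4 and HSC3), from 5317 to between 2682 and 4590 (SAS and HSC3), and from 5623 to between 2396 and 5770 (SAS and HSC4), a move of over 1.5 times whenever the library left out was of a line compared. The causes were not tested. Few counts limit MAGEA3, MAGEA6 and MAGEB2.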
